A study of Mus musculus with 4 samples.

Results

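The mRNAs of replication-dependent histones are made and matured by a dedicated set of factors, and 7 genes of this set were followed in cultured satellite cells, the stem cells of skeletal muscle (MuSC), with and without the arginine methyltransferase Prmt5. They were picked by name as factors of the histone locus body and of U7-dependent 3′ end formation, and all 7 were among the 20065 genes of the table and among the 16212 genes tested. The set held Slbp, Npat, Casp8ap2, Lsm10, Lsm11, Zfp473 and Eri1.

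RNA-seq was done on 2 control and 2 Prmt5sKO samples of cultured MuSC from limb and trunk muscles of adult mice on a C57BL/6 background. By their strain labels, control cells carried Pax7CreERT2 with 1 wild-type and 1 floxed Prmt5 allele (Prmt5+/loxP), whereas Prmt5sKO cells carried Pax7CreERT2 with both alleles floxed (Prmt5loxP/loxP), and the genotype label of the controls reads wild type. The strain labels add TAM (tamoxifen) for both groups, whereas the methods of the study describe 4-OH-TAM, its active form, given to the cells in culture some days before analysis. By the strain labels both groups therefore carry the Cre driver and at least 1 floxed allele, and recombination depends on activity of the Pax7 promoter. Ribosomal RNA was depleted before library preparation without selection of poly(A) tails, so that mRNAs without such a tail, as most histone mRNAs are, could be sequenced. The labels do not say whether the samples of a group came from separate animals, and p-values measure the spread between these samples only.

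Replication-dependent histone genes are transcribed in S phase at a nuclear structure called the histone locus body. Their transcripts are not polyadenylated but are cut behind a conserved stem-loop, which is bound by SLBP, by a complex that the U7 small nuclear ribonucleoprotein (U7 snRNP) brings to the site. The stem-loop then takes the place of the poly(A) tail in export, translation and decay. Prmt5 methylates Sm proteins, and its complex is also known to associate with Lsm10 and Lsm11, the proteins that set the U7 ring apart from the spliceosomal one.

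The stem-loop is the element on which Slbp, Eri1 and the U7 machinery act, and it is shown for the most abundant gene of each of the 5 histone classes and for H2afx, the 1 replacement histone gene whose transcript held it. Capitals mark the 16 bases of the element, a stem of 6 base pairs closed by a loop of 4 bases, and 5 bases are given on either side. Each lies in the 3′ untranslated region, behind the stop codon (GENCODE M21, GRCm38, transcript strand, T standing for U).
Hist1h1e: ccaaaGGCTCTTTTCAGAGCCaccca
Hist2h2ac: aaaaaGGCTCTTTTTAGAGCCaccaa
Hist1h2be: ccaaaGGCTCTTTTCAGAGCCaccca
Hist1h3c: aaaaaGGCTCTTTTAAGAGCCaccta
Hist1h4d: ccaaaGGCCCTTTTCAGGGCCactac
H2afx: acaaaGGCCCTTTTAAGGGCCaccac
They stand at chr13:23621782-23621797 (minus strand), chr3:96220418-96220433 (minus), chr13:23585531-23585546 (minus), chr13:23745047-23745062 (minus), chr13:23581950-23581965 (plus) and chr9:44335240-44335255 (plus), between 21 and 46 bases behind the stop codon. In all 6 the bases of the stem pair without a mismatch, which the search favours, since its pattern fixed the outer pairs and the pair next to the loop. The stem positions between them had to be C or T before the loop and A or G behind it. The same search found the element in annotated transcripts of 35 of the 52 replication-dependent histone genes in the table. Among genes of the table that the annotation held, it was found in 75 of 19782 (0.379%). Over all annotated genes it was found in 105 of 55450 (0.189%), and both counts include the 35. The most frequent form, that of Hist1h1e and Hist1h2be, was shared by 18 of the 35 genes, and the form of Hist1h4d by 7. Where it was not found, this says only that the annotated transcripts do not contain the pattern. A stem-loop with other letters would be missed.

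Prmt5 (ENSMUSG00000023110) was checked first. Libraries are named by their depth within a group because the table carries no replicate numbers, and wherever a pair of values is given for a group, the deeper library comes first. Prmt5 stood at 2273 and 2906 normalized counts (control) and at 244 and 202 (Prmt5sKO), which is the direction that the labels imply. Recovered counts summed over all genes ranged from 13240754 to 20047430 per library, and reads not assigned to a gene are not in these sums.
Libraries of 1 group differed from each other in other genes. Xist stood at 8668 and 23.3 normalized counts (control) and at 8.15 and 5655 (Prmt5sKO), so that the libraries of a group were not repeats of 1 RNA sample. Summed over the 9 markers of differentiating muscle, counts came to 11975 and 6597 (control) and to 18478 and 252516 (Prmt5sKO). For 8 of these 9 markers the Prmt5sKO libraries lay above both controls, and the list median was 2.75 on the log2 scale. The 8 markers of MuSC and myoblasts summed to between 45976 and 78451. Pericyte and smooth muscle markers (4 of 5 in the table, without Kcnj8) summed to 3169 and 1689 (control) and to 4720 and 6455 (Prmt5sKO), 3 of the 4 were higher in both Prmt5sKO libraries, and their median was 1.53 on the log2 scale. Endothelial markers (4 of 5, without Emcn) summed to 124 and 163 (control) and to 90.4 and 56.3 (Prmt5sKO). Of the 3 endothelial markers tested, 2 were lower and 1 was higher in both Prmt5sKO libraries. Immune markers (4 of 6, without Ptprc and Adgre1) summed to 122 and 144 (control) and to 68.2 and 101 (Prmt5sKO), and Schwann markers (4 of 4) to 52.0 and 42.8 (control) and to 28.2 and 38.2 (Prmt5sKO). Of the 4 immune markers tested, 1 was lower and 0 were higher in both Prmt5sKO libraries. Only 1 Schwann marker was tested, and its groups overlapped. Fibro-adipogenic markers (6 of 6) ranged from 65.5 to 223, and the groups overlapped. The part of these differences in the results that follow was not tested. In such bulk samples, fewer cells of a kind and less RNA per cell cannot be told apart.

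Across the 16212 genes tested with limma-voom, 0 genes passed an adjusted p of 0.05, and the smallest adjusted p, that of Prmt5, was 0.193. This count rests on how the libraries are treated, as 489 genes were called without the deeper and 55 without the shallower Prmt5sKO library. With a block that pairs the libraries alike in Xist, chosen after the data were seen, 346 genes were called. None of the 7 histone mRNA factors was called in any of these fits. Of all tested genes, 1126 (6.95%) were lower and 975 (6.01%) higher in Prmt5sKO at an unadjusted p under 0.05. Both Prmt5sKO libraries lay below both controls for 23.6% of the genes and above them for 25.2%, and these shares are the background for the counts given here. At an unadjusted p under 0.05, 2 of the 7 were lower (Casp8ap2 and Slbp) and 0 higher. Both Prmt5sKO libraries lay below both controls for 4 of the 7 (Slbp, Casp8ap2, Eri1 and Lsm11), for 0 of 7 they lay above, and for Npat, Lsm10 and Zfp473 the groups overlapped. The median log2 fold change of the 7 genes was -0.45, beside 0.02 for all genes tested.

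**Figure D1:**
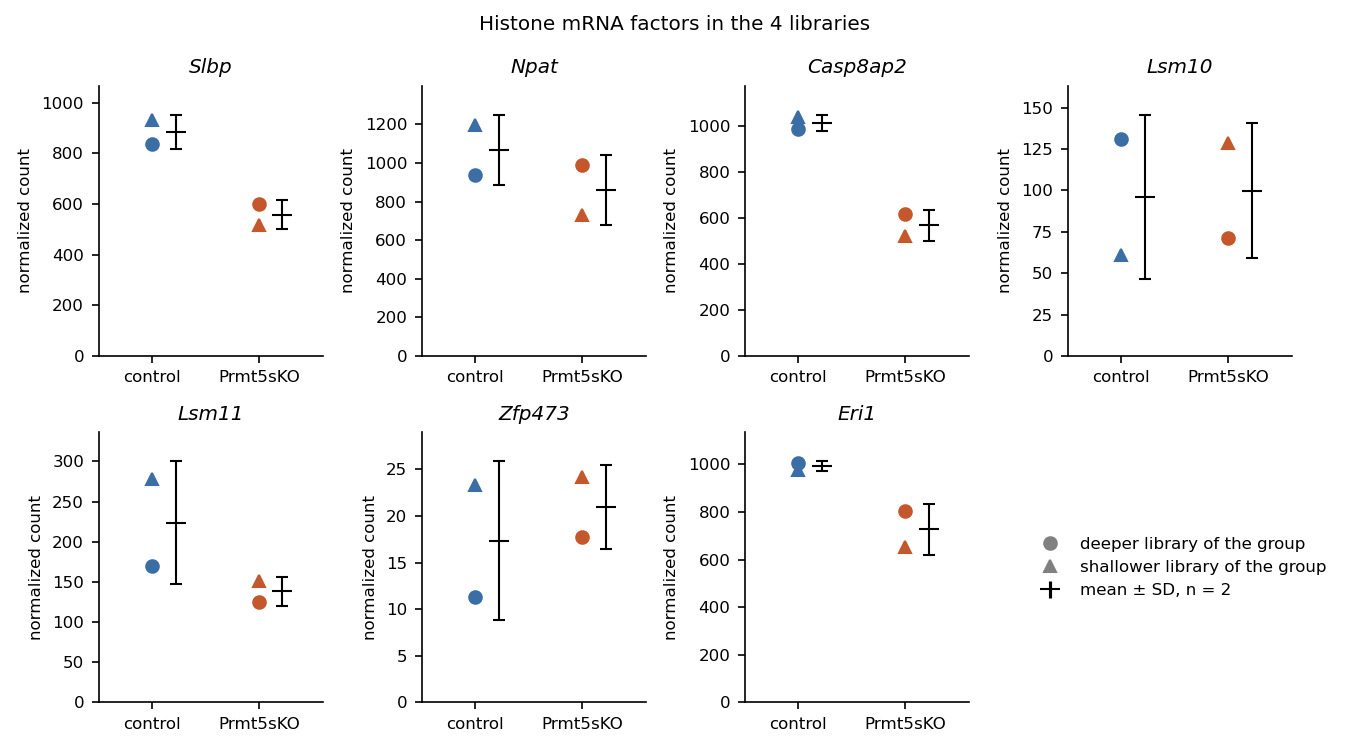
Normalized counts (y axis, from 0, own scale in each panel) of the 7 histone mRNA factors in control (blue) and Prmt5sKO (orange) libraries. Circles are the deeper and triangles the shallower library of a group, and black bars are mean ± SD of 2 libraries. The groups are apart for Slbp, Casp8ap2, Eri1 and Lsm11 and overlap for Npat, Lsm10 and Zfp473.

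Transcription factors of the histone locus body came first. Npat (ENSMUSG00000033054, chr9:53537047-53574342, plus strand, GRCm38), the substrate of cyclin E and Cdk2 that switches on histone genes, stood at 939 and 1196 normalized counts (control) and at 987 and 732 (Prmt5sKO). The deeper Prmt5sKO library thus lay between the controls, and the groups overlapped. The log2 fold change was -0.31 with a standard error of 0.25 (adjusted p = 0.619, limma-voom).
Casp8ap2 (ENSMUSG00000028282, chr4:32615451-32653265, plus strand), which encodes FLASH, organizes the histone locus body and binds Lsm11 to form the platform for the cleavage complex. Its normalized counts were 988 and 1038 (control) and 616 and 521 (Prmt5sKO). Of the 7 genes it had the lowest fold change and the smallest p, with a mean of 1013 ± 35.2 (SD, n = 2) in control against 568 ± 67.0 (SD, n = 2) in Prmt5sKO. The gap between the groups was larger than the spread within either of them. Its log2 fold change was -0.83 with a standard error of 0.22 (adjusted p = 0.276, limma-voom), which placed it at the 11.9th percentile of all tested genes, where 0 is the lowest fold change.

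Npat was then set against its partner and its neighbour on the chromosome. Casp8ap2 counts per Npat count were 1.05 and 0.868 (control) and 0.624 and 0.712 (Prmt5sKO), and both Prmt5sKO values lay below both controls. Atm, the DNA damage kinase gene that is read in the opposite direction from the other side of the Npat start, begins 306 bases from Npat. Its normalized counts were 1470 and 2145 (control) and 1071 and 730 (Prmt5sKO). The log2 fold change of Atm was -0.996 with a standard error of 0.30 (adjusted p = 0.298, limma-voom). Atm counts per Npat count were 1.57 and 1.79 (control) and 1.08 and 0.997 (Prmt5sKO), again with both Prmt5sKO values below both controls. These ratios do not depend on the scaling of the libraries, and the differences between groups in them were not tested, since 2 against 2 samples cannot give an exact two-sided permutation p below 0.333. How often such a ratio separates the groups over all genes was not computed, and the background shares given above are for single genes.

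**Figure D2:**
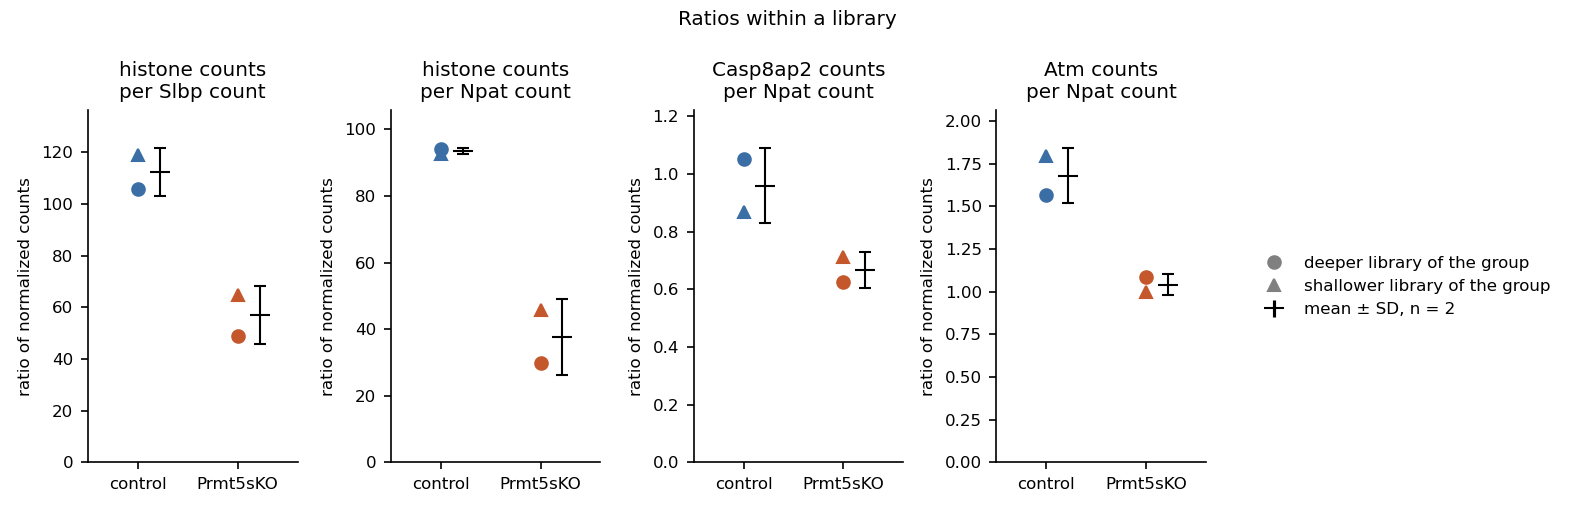
Ratios of normalized counts within each library (y axes from 0) for control (blue) and Prmt5sKO (orange), with circles for the deeper and triangles for the shallower library and bars for mean ± SD (n = 2). From left to right the panels show summed histone counts per Slbp count, summed histone counts per Npat count, Casp8ap2 counts per Npat count and Atm counts per Npat count. In all 4 panels both Prmt5sKO libraries lie below both controls. The ratio of Lsm11 to Lsm10 counts, in which the groups overlap, is not shown.

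The promoters of Casp8ap2, Npat and Slbp are shown because Casp8ap2 and Slbp had the smallest p of the set and because Npat shares the interval before its start with Atm. Windows of 250 bases before the annotated start were taken from RefSeq (GRCm38.p6), which matched 6 of the 7 genes, and are given on the strand of the gene. Capitals mark matches to an E2F-type element (TTTCCCGC, TTTGGCGC, TTTCGCGC or TTTGCCGC) or to CCAAT, both searched on both strands, so that ATTGG marks CCAAT on the other strand.
Casp8ap2: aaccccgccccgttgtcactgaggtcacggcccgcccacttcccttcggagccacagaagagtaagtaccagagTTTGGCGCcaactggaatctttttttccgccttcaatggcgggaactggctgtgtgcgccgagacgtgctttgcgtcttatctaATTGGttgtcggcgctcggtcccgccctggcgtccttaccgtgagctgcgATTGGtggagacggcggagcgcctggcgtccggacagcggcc
Npat: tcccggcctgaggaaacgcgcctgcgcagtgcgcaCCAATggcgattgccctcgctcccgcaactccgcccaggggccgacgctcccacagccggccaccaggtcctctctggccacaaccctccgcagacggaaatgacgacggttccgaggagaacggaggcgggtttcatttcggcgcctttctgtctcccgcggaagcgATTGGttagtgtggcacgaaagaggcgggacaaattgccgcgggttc
Slbp: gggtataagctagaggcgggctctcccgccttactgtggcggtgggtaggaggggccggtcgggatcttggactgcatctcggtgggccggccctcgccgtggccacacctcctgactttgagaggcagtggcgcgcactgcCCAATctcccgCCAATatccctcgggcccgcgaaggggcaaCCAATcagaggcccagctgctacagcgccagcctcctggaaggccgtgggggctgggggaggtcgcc
The windows lie at chr4:32615220-32615469 (plus strand), chr9:53536797-53537046 (plus) and chr5:33652575-33652824 (minus). An E2F-type element was found 176 bases before the Casp8ap2 start, in the form TTTGGCGC, and in none of the other windows of the set, while 1.86% of all 32851 promoter windows held one. CCAAT was found 3 times before Slbp, and 2 times each before Casp8ap2 and Npat, 1 time before Lsm10 and before the third of 3 annotated starts of Zfp473, and not before Lsm11. It occurred in 33.8% of all windows. The CCAAT match 215 bases before Npat (chr9:53536832-53536836) was also the match in the Atm window, 165 bases before the RefSeq start of Atm and on its other strand. Bases G and C made up between 54.4% and 68.4% of the windows of the 6 genes matched, beside a median of 52.4% over all windows. Only the letter forms listed were searched, so a window without a match can still hold an E2F-type element with other letters. A match is a stretch of letters, and binding was not measured.

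The factors that act on the RNA itself were considered next. Slbp (ENSMUSG00000004642, chr5:33634952-33652574, minus strand) encodes the stem-loop binding protein, which stays with histone mRNA from processing to translation. Its normalized counts were 836 and 932 (control) and 599 and 517 (Prmt5sKO). Means were 884 ± 68.0 and 558 ± 57.8 (SD, n = 2), a Prmt5sKO level of 0.631 times control, and the groups did not overlap. The log2 fold change was -0.66 with a standard error of 0.22 (adjusted p = 0.327, limma-voom). Gm10459, an annotated gene of unknown kind on the opposite strand, covers 474 bases at the 5′ end of Slbp and was not analysed here, and whether counting used the strand is not given in the sources used here.
Eri1 (ENSMUSG00000031527, chr8:35465253-35496196, minus strand), an exonuclease that binds the stem-loop together with SLBP and trims the 3′ end, stood at 1007 and 978 normalized counts (control) and at 803 and 652 (Prmt5sKO). Both Prmt5sKO values lay below both controls. Its log2 fold change of -0.45 with a standard error of 0.22 (adjusted p = 0.430, limma-voom) was the median of the 7 genes. The ratio of Slbp to Eri1 counts was 0.831 and 0.954 in control and 0.745 and 0.793 in Prmt5sKO.

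Genes for proteins of the U7 snRNP had the fewest counts of the set, before gene length is considered. Lsm11 (ENSMUSG00000044847, chr11:45928269-45944935, minus strand), whose long N-terminal part holds the binding surface for FLASH, stood at 170 and 278 normalized counts (control) and at 125 and 151 (Prmt5sKO). The groups did not overlap, yet the controls lay farther from each other than the lower of them from either Prmt5sKO library. The log2 fold change was -0.66 with a standard error of 0.38 (adjusted p = 0.489, limma-voom), nearly that of Slbp with a wider error.
Lsm10 (ENSMUSG00000050188, chr4:126096623-126098584, plus strand), the partner of Lsm11 in the U7 ring, stood at 131 and 61.0 normalized counts (control) and at 71.1 and 129 (Prmt5sKO). In both groups 1 library was about as high as the higher library of the other group, and the groups overlapped almost fully. The reads behind these values were 116 and 47 (control) and 96 and 128 (Prmt5sKO). The log2 fold change was 0.02 with a standard error of 0.55 (adjusted p = 0.990, limma-voom).
Zfp473 (ENSMUSG00000048012, chr7:44731480-44751050, minus strand), the zinc finger protein ZFP100 that contacts Lsm11 and the SLBP-bound stem-loop, rested on few reads, 10 and 18 (control) and 24 and 24 (Prmt5sKO). These gave 11.3 and 23.3 normalized counts in control and 17.8 and 24.1 in Prmt5sKO. The exact 95% Poisson interval of its lowest count ran from 4.80 to 18.4 reads and covers counting error only. With a log2 fold change of 0.33 and a standard error of 0.75 (adjusted p = 0.864, limma-voom), neither a difference nor its absence was detectable at this depth. Vrk3 overlaps it by 2638 bases on the opposite strand and had 252 and 235 normalized counts in control and 428 and 289 in Prmt5sKO, so reads of the shared stretch could belong to either gene if strand was not used. U7 snRNA itself (Rnu7, chr6:124741225-124741286, minus strand) was not analysed here.

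Per kilobase of annotated exon, the 7 genes stood at 3 levels. In control, Npat (171 ± 29.0 normalized counts per kb), Casp8ap2 (148 ± 5.16), Slbp (146 ± 11.2), Eri1 (112 ± 2.32) and Lsm10 (102 ± 52.6) stood highest (mean ± SD, n = 2). Lsm11 followed with 34.6 ± 11.8 and Zfp473 with 1.73 ± 0.848. Among the first 3, neighbours differed by less than the spread between libraries, and Eri1 lay below each of them in both control libraries. Lsm10 could not be placed among the first 5, since its position moved from the third to the fifth between the control libraries, and it was the highest of the set in the shallower Prmt5sKO library. In Prmt5sKO, Npat (138 ± 28.8) stood above Slbp (91.8 ± 9.51), Casp8ap2 (83.3 ± 9.82) and Eri1 (82.0 ± 12.1), and these 3 overlapped each other. Lsm11 (21.4 ± 2.81) and Zfp473 (2.09 ± 0.448) kept the last 2 places in each of the 4 libraries. Exon length is the union of annotated exons, so a gene whose long 3′ end is not used is set too low.

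**Figure D3:**
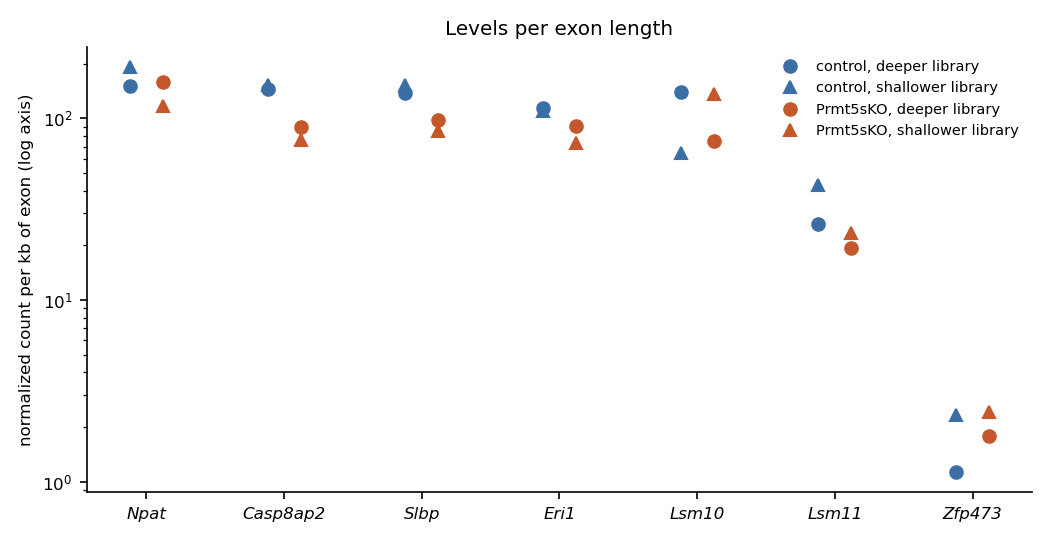
Normalized counts per kb of annotated exon (logarithmic y axis) of the 7 genes, ordered by their control mean, with 1 point per library (blue control, orange Prmt5sKO, circles the deeper and triangles the shallower library). Npat, Casp8ap2, Slbp and Eri1 lie between 73.5 and 191, Lsm11 between 19.4 and 43.0 and Zfp473 between 1.13 and 2.4.

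Direction and size were then followed with each library left out. Casp8ap2 stayed between -0.96 and -0.72 on the log2 scale, Slbp between -0.77 and -0.56 and Eri1 between -0.61 and -0.31. Npat was -0.10 without the shallower Prmt5sKO library and -0.53 without the deeper one. Lsm11 was -0.31 without the shallower control library and -1.04 without the deeper one, so that its size rests on which control is kept. Lsm10 changed sign, from 0.59 without the deeper control library to -0.48 without the shallower control and -0.36 without the shallower Prmt5sKO library. Zfp473 also turned, from 0.82 where the shallower control was left out to -0.22 where the deeper one was. The number of the 7 genes that were lower at an unadjusted p under 0.05 was 3 without the deeper Prmt5sKO library, 1 without the shallower Prmt5sKO library, 1 without the deeper control and 0 without the shallower control. Without the shallower Prmt5sKO library, in which the markers of differentiating muscle were highest, Casp8ap2 was at -0.72, Lsm11 at -0.77 and Slbp at -0.56. In that fit Eri1 was at -0.31, Npat at -0.10, Lsm10 at -0.36 and Zfp473 at 0.13. The Prmt5sKO library that remained still had a higher sum of these markers than either control (18478 against 11975 and 6597).

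**Figure D4:**
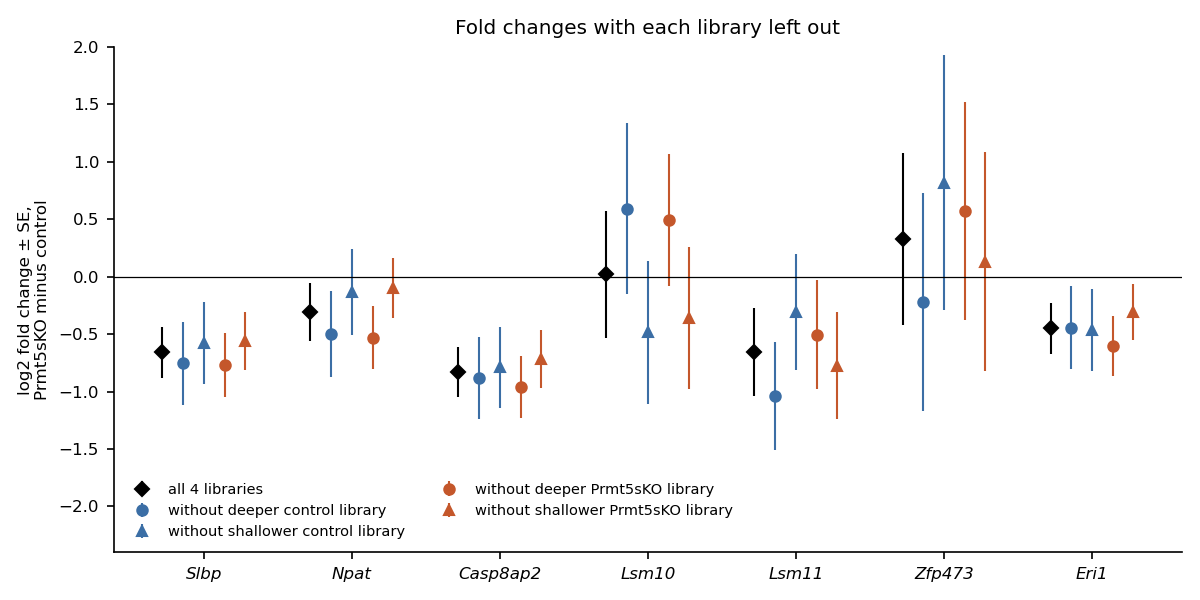
Log2 fold change, Prmt5sKO minus control, with its standard error (bars) for the 7 genes, with all 4 libraries (black) and with each library left out in turn (blue for a control, orange for a Prmt5sKO library). All 5 estimates lie below 0 for Slbp, Npat, Casp8ap2, Lsm11 and Eri1, and on both sides of 0 for Lsm10 and Zfp473.

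The transcripts that these factors serve, the histone mRNAs themselves, were measured in the same libraries. Of 48 replication-dependent histone genes tested, 42 had both Prmt5sKO values under both controls and 1 (Hist2h2be) had both above, 40 were lower at an unadjusted p under 0.05, and 0 passed the adjusted threshold. Their median log2 fold change was -1.61, beside -0.45 for the 7 factors and 0.02 for all genes. Class medians were -1.77 for H1 (5 genes), -2.01 for H2a (13), -1.59 for H2b (13), -1.61 for H3 (5) and -1.50 for H4 (12). Many of these genes are near-identical copies, and reads that could not be assigned to 1 of them would be missing from the counts. The 33 tested genes whose transcripts held the stem-loop printed above had a median of -1.61, and the 15 without a match also -1.61. H2afx, which carries the stem-loop, was at -1.62 with a standard error of 0.24 (adjusted p = 0.203, limma-voom), with 2651 and 2659 normalized counts in control and 728 and 1034 in Prmt5sKO.
Summed histone counts per Slbp count were 106 and 119 (control) and 49.0 and 64.9 (Prmt5sKO). Per Npat count they were 94.1 and 92.7 (control) and 29.7 and 45.8 (Prmt5sKO), and per Casp8ap2 count 89.5 and 107 against 47.6 and 64.4. The groups did not overlap in any of the 3 ratios, and no share over all genes was computed for such ratios. A smaller number of histone reads per read of each factor was thus measured in both Prmt5sKO libraries, and these differences were not tested.
Slbp and Casp8ap2 stand in a common list of S-phase genes. For the other 41 genes of that list the median was -1.15 on the log2 scale, 40 had both Prmt5sKO values under both controls and 37 were lower at an unadjusted p under 0.05. Casp8ap2 and Slbp were nearer to 0 than that median. The part of S-phase gene levels in the values of the 7 factors was not tested.

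Partners in transcription were looked at as a list of 15 further factors of histone gene transcription, named histone locus body partners here. Their median on the log2 scale was -0.59, both Prmt5sKO values lay under both controls for 12 of the 15, 4 of the 15 were lower at an unadjusted p under 0.05, and 0 passed after adjustment. The smallest p belonged to Ccne2 and Ccne1, the cyclin E genes whose kinase complex phosphorylates Npat, and to Trrap, a scaffold of histone acetyltransferases. Ccne2 had 510 and 645 normalized counts in control and 290 and 267 in Prmt5sKO, a log2 fold change of -1.03 (SE 0.26, adjusted p = 0.264, limma-voom). Ccne1 had 1355 and 1130 in control and 322 and 830 in Prmt5sKO. Trrap was at -0.62 (SE 0.20). Hinfp, which activates histone H4 genes, had the highest value of the list, 0.52. Ccne2 also stands in the S-phase list.
The cleavage complex shared with polyadenylation (Sympk, Cpsf2, Cpsf3 and Cstf2) had a median of -0.31. In 3 of its 4 genes both Prmt5sKO libraries were lower, and Cstf2, the subunit that binds RNA downstream of the cut, had the smallest p, with 2115 and 2184 normalized counts in control and 1601 and 1283 in Prmt5sKO. Cpsf3, the nuclease that makes the cut, was at -0.22 (SE 0.22) and its partner Cpsf2 at -0.41 (SE 0.20). Of the 3 cap-binding factors, Srrt, which encodes ARS2 and links the cap to 3′ end formation of histone mRNA, was at -0.60 (SE 0.19), Ncbp1 at -0.41 (SE 0.20) and Ncbp2 at 0.23 (SE 0.20).

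The U7 ring is built from Lsm10, Lsm11 and 5 Sm proteins shared with spliceosomal snRNPs. Their median was -0.45, and 4 of the 5 had both Prmt5sKO values under both controls, with 0 at an unadjusted p under 0.05. Snrpd3, with 3081 and 3039 normalized counts in control and 1966 and 2563 in Prmt5sKO, was at -0.45 (SE 0.22). Snrpg was at -0.65 (SE 0.33), and Snrpf at -1.76 with a standard error of 0.91, on 4.45 to 31.6 normalized counts per library. The Sm genes whose place Lsm10 and Lsm11 take were at -0.61 (Snrpd1, SE 0.25) and -0.02 (Snrpd2, SE 0.25). Lsm11 counts per Lsm10 count were 1.29 and 4.55 (control) and 1.76 and 1.17 (Prmt5sKO), so the balance within the pair differed more between the 2 controls than between the Prmt5sKO libraries, which lay within or just below the control range. The partners of Prmt5 in Sm protein methylation had a median of -0.04. Wdr77, the obligate cofactor MEP50, was at -0.41 (SE 0.21), the adaptor pICln (Clns1a) at 0.04 (SE 0.21) and the adaptor Riok1 at -0.04 (SE 0.24), against -3.52 (SE 0.27) for Prmt5 itself.

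After processing, Slbp acts with export and translation factors, and these 6 genes had a median of 0.03. In 5 of the 6 the groups overlapped, and only Nxf1, the mRNA export receptor, was lower in both Prmt5sKO libraries (2609 and 2441 normalized counts in control, 1960 and 2127 in Prmt5sKO, log2 fold change -0.31, SE 0.20). Mif4gd, which encodes the translation partner of SLBP called SLIP1, was at 0.26 (SE 0.52), and the helicase gene Ddx19b at 0.32 (SE 0.33).
Among 16 factors of histone mRNA decay besides Eri1, the median was -0.25. In 7 of them both Prmt5sKO libraries were lower and in 2 higher, and 2 were lower at an unadjusted p under 0.05. Upf1, the helicase that SLBP recruits when replication stops, had 1506 and 2683 normalized counts in control and 503 and 672 in Prmt5sKO (log2 fold change -1.80, SE 0.34, adjusted p = 0.222, limma-voom). Lsm2, a subunit of the Lsm1-7 ring that binds the oligouridylated tail, had 766 and 699 in control and 282 and 409 in Prmt5sKO (log2 fold change -1.13, SE 0.27). The decapping enzyme gene Dcp2 was at -0.52 (SE 0.25). The log2 fold changes of Upf1 and Lsm2 lay farther from 0 than that of any of the 7 factors.
Of 6 genes that end SLBP action after S phase, 4 were lower in both Prmt5sKO libraries, 3 of them at an unadjusted p under 0.05, and 1 was higher in both. The median was -0.68. These 3 were Ccna2 (-1.07, SE 0.21) and Cdk1 (-0.94, SE 0.19), whose kinase complex marks SLBP for degradation, and Ccnf (-0.80, SE 0.21), the F-box protein that targets SLBP in G2. Cdk1 had 3461 and 3432 normalized counts in control and 1760 and 1837 in Prmt5sKO, all in a narrow range within each group.

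**Figure D5:**
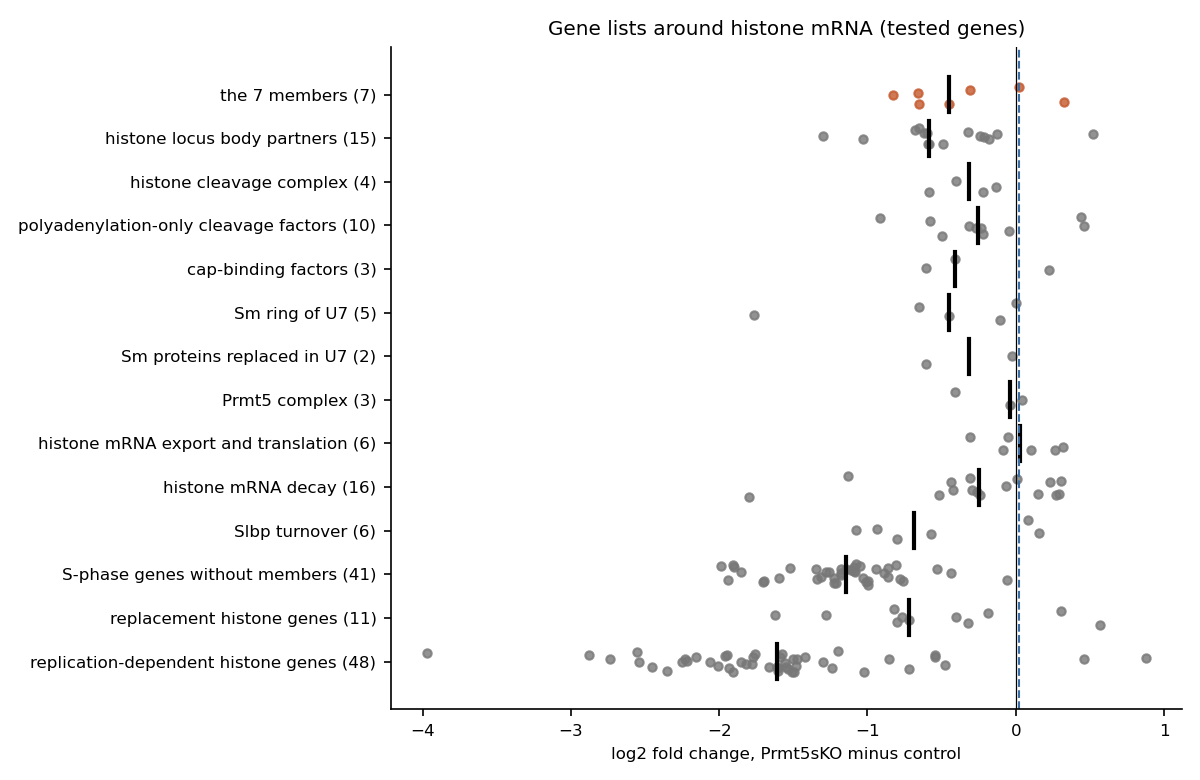
Log2 fold change, Prmt5sKO minus control (x axis), of every tested gene (points, spread vertically for view) in the 7 histone mRNA factors (orange) and 13 further lists (grey), with the number of tested genes in parentheses. Black bars are list medians, from 0.03 for export and translation to -1.61 for replication-dependent histone genes, and the dashed line is the median of all tested genes, 0.02.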

How the data were processed

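RNA-seq libraries of cultured MuSC, 2 control and 2 Prmt5sKO, were made from RNA depleted of ribosomal RNA and sequenced on an Ion Torrent platform. The submitters' processing notes name STAR 2.4.0a and DESeq2 1.62 with the mouse build GRCm38 (mm10). The deposited signal columns hold, per gene, counts that the authors divided by size factors and averaged, 1 mean per group and 1 overall. Further deposited columns hold the authors' own comparison (log2 fold change, its standard error, p-value and adjusted p-value) and were not used. The authors' supplement lists reads with several positions as unassigned.

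From the steps in each group mean, whole counts per library were recovered for all 20065 genes, a procedure tested on simulated data. Counts were scaled by TMM (trims of 30% and 5%), genes averaging under 5 normalized counts were dropped, and control and Prmt5sKO were tested against each other in limma-voom (limma 3.58.1, R 4.3.3, two-sided, Benjamini-Hochberg adjustment over 16212 genes). A call needed an adjusted p no higher than 0.05 with a fold change no smaller than 2. Exact two-sided permutation of 2 against 2 samples cannot give a p below 0.333, so single ratios were not tested. Libraries are named by depth. Total counts per library, 13240754 to 20047430, set the counting error. Alternatives were 3 other scalings, no filter, limma-trend, each library left out and replicate blocks. Symbols and coordinates came from GENCODE M21, which held 19782 of the 20065 identifiers; promoters came from RefSeq.

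The 7 genes and all lists were chosen with earlier results of these data known. Named are all 7 genes, Prmt5, Atm, overlapping genes and the 3 genes with the smallest p of each list. Replication-dependent histone genes and S-phase genes are instead given by counts and medians. Hist2h2be, Hinfp, Clp1 and Xist were named after their values were seen. Tut7 stands for the older symbol Zcchc6.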

Additional observations from a re-analysis of the deposited data

How the results depend on the processing

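Of 77 recomputed fold changes of the 7 genes, 73 kept their direction and none passed the adjusted threshold. Lsm10 and Zfp473, which reached 0.59 and 0.82 with a control left out, were the exceptions. Lsm10 turned to -0.48 without the shallower control, -0.36 without the shallower Prmt5sKO library and -0.00085 in the replicate block that pairs libraries by depth, and Zfp473 turned to -0.22 without the deeper control. The cause was not tested.

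With each library left out, the number of genes called ranged from 0 to 489 (0 without either control, 55 without the shallower and 489 without the deeper Prmt5sKO library), and genes at an unadjusted p under 0.05 from 658 to 2969. A lone library is then assumed to vary like the others. Genes whose groups do not overlap ranged from 11300 to 12420, since 1 library overlaps less easily than 2. The median of the 7 genes ranged from -0.53 to -0.36 and that of replication-dependent histone genes from -1.82 to -1.54. Listed genes lower at an unadjusted p under 0.05, counted after seeing the data, ranged from 0 to 3 (the 7 genes), 1 to 7 (histone locus body partners), 26 to 36 (S-phase genes) and 37 to 41 (histone genes).

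Scaling by library size alone moved the median of all genes from 0.02 to 0.13, the median of the 7 genes to -0.34 and that of histone genes to -1.50. The split at an unadjusted p under 0.05 became 1365 higher and 764 lower, and the lower genes became 1 of 7 and 2 of 15 histone locus body partners. In the paired fit, the replicate block by depth, 0 genes were called and 1 of the 7 genes was lower at an unadjusted p under 0.05. The columns carry no numbers, and residuals correlated at -0.24 by depth. The crossed replicate block, added after seeing the data, pairs the libraries alike in Xist. Its correlation of 0.24 is the same value with its sign changed and not a separate result. This crossed block called 346 genes, with 3155 at an unadjusted p under 0.05 and 7 histone locus body partners lower.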

Other observations

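A list of 10 further cleavage factors of polyadenylated mRNA had a median of -0.25 on the log2 scale. Whether these 10 genes serve polyadenylated mRNA alone, or histone mRNA as well, was not tested. In 6 of them both Prmt5sKO libraries were lower and in 1 higher, 3 were lower at an unadjusted p under 0.05, and 0 passed after adjustment in limma-voom. Cpsf4, a zinc finger subunit that helps to read the polyadenylation signal, stood at 608 and 685 normalized counts (control) and at 326 and 359 (Prmt5sKO), a log2 fold change of -0.92 (SE 0.24). Cpsf1 was at -0.58 (SE 0.19) and Cpsf6, a subunit of cleavage factor I, at -0.50 (SE 0.20). The largest value, 0.46, was that of Clp1.

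Of 11 replacement histone genes, 6 were lower in both Prmt5sKO libraries and 0 higher, 5 were lower at an unadjusted p under 0.05, and their median was -0.72. Besides H2afx these included Cenpa, the centromeric histone H3, with 1352 and 1471 normalized counts in control and 829 and 789 in Prmt5sKO (-0.80, SE 0.20), and H2afy, which encodes macroH2A1, at -0.76 (SE 0.22). The 10 of these genes without a match to the stem-loop pattern had a median of -0.56. Outside both histone lists, 39 genes in the table had a transcript with the same 16-base pattern. The 35 of them tested had a median of 0.03, with 4 lower and 8 higher in both Prmt5sKO libraries.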
